A study of Mus musculus with 8 samples.

Results

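The dermal papilla is the small cluster of mesenchymal cells at the base of the hair follicle, and 9 genes known as its markers were followed here in healing mouse skin. They were the 9 rows of a table of 43346 genes whose symbols are Sox2, Sox18, Corin, Alx4, Prom1, Trps1, Hey1, Ndnf and Tbx18, each found once by its symbol. RNA came from viable cells with high tdTomato fluorescence, sorted from wounds of Sm22-Cre;tdTomato animals of mixed background at 12, 15, 21 and 26 days post wounding, with 2 SMART-seq2 libraries (full-length cDNA made from little RNA) for each day and 8 in all. Every group carried the same transgenes, in which Cre follows the promoter of Sm22, a gene of contractile cells, so there was no group without them and none of unwounded skin. Neither age nor the number of animals behind a library was stated in the labels, so p-values measure only the spread between these libraries, which may be technical. The 2 libraries of a day are called library 1 and library 2 in the order of the authors' columns, and the numbers have no meaning across days.

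Papilla cells signal to the overlying epithelium and control when a hair follicle forms and grows. They are mesenchymal cells and share much of their expression with other dermal fibroblasts, so that papilla markers are usually read in combination. Several of the 9 genes are also used by other cells of the skin. Sox18 is known from blood and lymphatic endothelium, Hey1 from vessels, Sox2 from Schwann cell precursors and Merkel cells, and Tbx18 from pericytes. In bulk RNA, fewer cells of a type and less RNA per cell cannot be told apart.

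Between day 12 and day 26, 2 of the 9 markers rose, Ndnf and Corin, none fell and 7 did not pass. Values are in TPM, the abundance of a transcript scaled for gene length and for the total of its library, and a gene passed when limma gave an adjusted p under 0.05 over 15062 tested genes. In the same comparison 5.26% of all tested genes rose and 11.8% fell, and after quantile normalization the shares were 7.71% and 8.07%, so that the lower share of rises depends on the scaling. The median log2 change of the 9 markers was 0.78, beside -0.20 over all tested genes, and after quantile normalization the pair was 0.94 and -0.01. In the F test over the 4 days 1 of 9 passed, Ndnf, beside 12.4% of all tested genes. Taking levels alone, 5 of 9 markers (Sox18, Corin, Alx4, Prom1 and Ndnf) were higher in both libraries of day 26 than in both of day 12, against 17.9% of tested genes. The reverse held for 1 marker, Trps1, against 43.5% of tested genes. Corin, Alx4 and Prom1, of the 5 higher ones, reached 1 TPM in only 2 or 3 libraries, all from day 15 or later. They were tested through these libraries, so the count of 5 and the median change lean towards late rises. Leaving out the libraries richest in Xist on days 15 and 21 kept the log2 changes from day 12 to day 26 at 2.39 (Ndnf) and 1.47 (Corin). Neither library belongs to day 12 or day 26, so these changes could not move and say nothing on Xist.

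**Figure D1:**
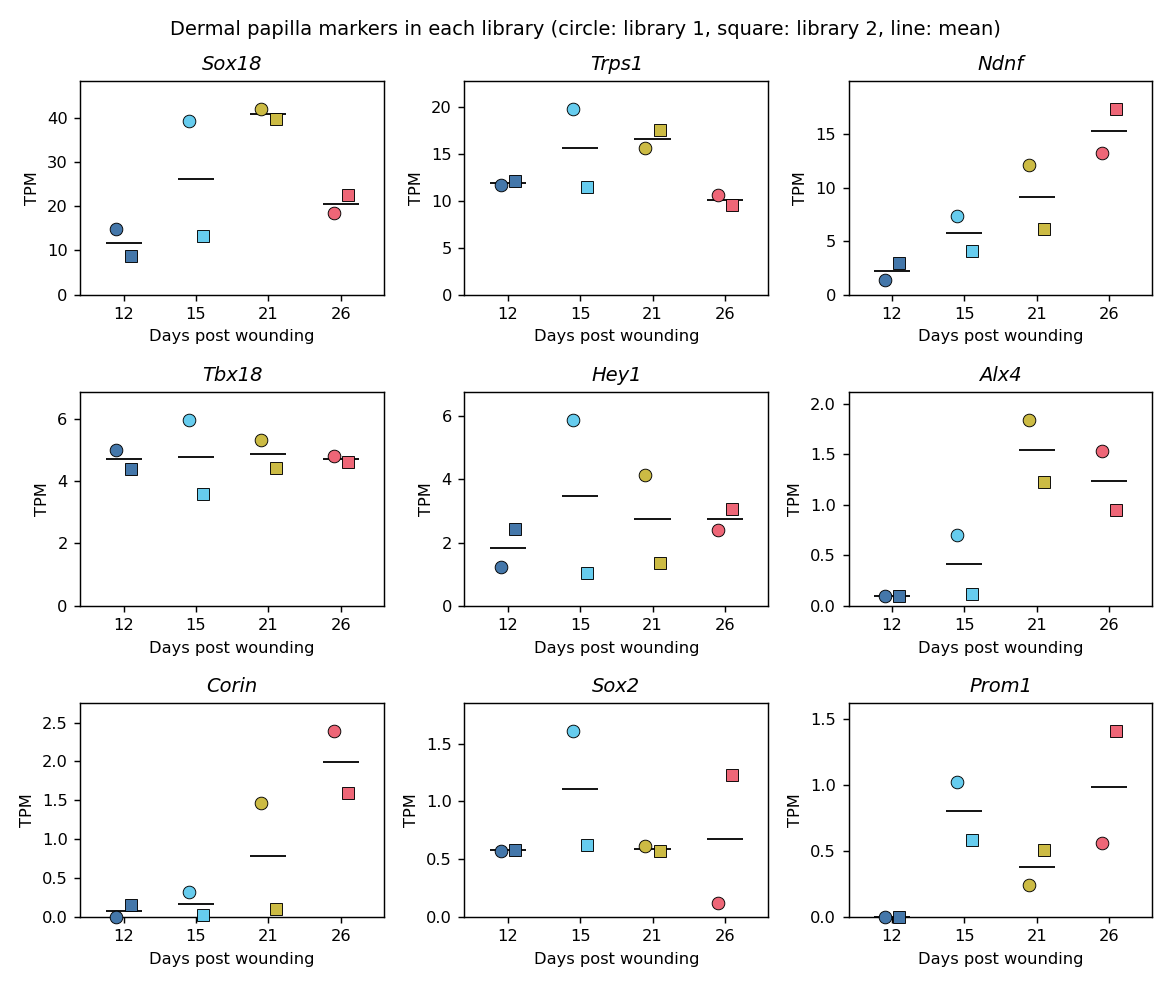
TPM (vertical axes, each starting at 0) of the 9 markers by days post wounding (horizontal axes), with a point for each library and a line at the mean of a day. Ndnf climbs to 13.28 and 17.37 TPM on day 26, Sox18 is highest on day 21 at 42.12 and 39.78 TPM, and Tbx18 stays between 3.59 and 5.96 TPM.

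Levels differed widely between the markers. Averaged over the 8 libraries Sox18 stood highest at 24.9 TPM, followed by Trps1 at 13.5, Ndnf at 8.10, Tbx18 at 4.76 and Hey1 at 2.70 TPM. These 5 genes reached 1 TPM in all 8 libraries. Alx4, Corin, Sox2 and Prom1 averaged 0.821, 0.754, 0.739 and 0.540 TPM, and each reached 1 TPM in only 2 or 3 libraries. The last 4 genes cleared the minimum for testing (1 TPM in at least 2 libraries) through a few high libraries, so a count over the tested markers is weighted towards those that differ. Corin and Prom1, both often used to isolate papilla cells, never exceeded 2.39 and 1.41 TPM. Sequencing depth cannot be read from TPM and is unknown here, so these low values carry no counting interval.

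Ndnf encodes a secreted protein with a fibronectin type domain, first described as a survival factor of neurons. It had 1.39 and 2.99 TPM at day 12, 7.37 and 4.11 at day 15, 12.15 and 6.17 at day 21, and 13.28 and 17.37 at day 26. All 6 later libraries lay above both libraries of day 12, and both of day 26 lay above all the rest, while days 15 and 21 overlapped. The log2 change from day 12, where the mean was 2.19 ± 1.13 TPM (SD, n = 2), to day 26 was 2.39 (SE 0.39, limma adjusted p = 0.00493). Leaving out any 1 library gave log2 changes from 2.02 to 2.76, and the rise passed each time. The F test over the 4 days (adjusted p = 0.0212) no longer passed without library 1 of day 12 (0.103), without library 2 of day 26 (0.0540), without the libraries richest in Xist (0.0525) or with no filter on low genes (0.0891). The gene lies on chromosome 6 from 65671590 to 65712326 on the plus strand (ENSMUSG00000049001.4, positions from GENCODE vM21 on GRCm38). No other annotated gene overlaps it.

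The 3 genes whose levels most resembled those of Ndnf over the 8 libraries were Cluap1, which encodes a protein of ciliary transport, Nt5e, which encodes a nucleotidase of the cell surface, and Pik3ip1, a negative regulator of a phosphoinositide kinase. Y-linked genes and symbols of the Gm, LOC and Rik kind were left out of this search. Pearson correlations of the 3 genes with Ndnf were 0.995, 0.985 and 0.981 on log2(TPM + 1). These were the highest among the 7192 remaining genes at or above the median level. These are descriptions over 8 libraries that share their days, and no p is attached. Nt5e had 4.68 and 11.86 TPM on day 12 and 52.57 and 53.06 TPM on day 26, and its intermediate libraries lay between these values. Cluap1 covered a much narrower range, from 12.62 to 25.02 TPM.

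Corin encodes a transmembrane serine protease that activates atrial natriuretic peptide and, in the mouse papilla, is known to act on coat colour. It was listed at 0 and 0.15 TPM at day 12, at 0.32 and 0.02 at day 15, at 1.46 and 0.10 at day 21 and at 2.39 and 1.59 at day 26. Both libraries of day 26 lay above the other 6, and the neighbouring days before that overlapped, with the libraries of day 21 far apart. The mean was 0.075 ± 0.106 TPM on day 12 and 1.99 ± 0.566 TPM on day 26 (SD, n = 2), a log2 change of 1.47 (SE 0.42, limma adjusted p = 0.0437). This call was marginal. Leaving out 1 library from days 12, 15 or 26 took the adjusted p to between 0.0569 and 0.204, whichever of the libraries was left out. With 0.1 in place of 1 added before the logarithm the log2 change was 3.70 and the adjusted p 0.0729, and with no filter on low genes the adjusted p was 0.0766. The F test did not pass (adjusted p = 0.112). Corin lies on chromosome 5 from 72300025 to 72504473 on the minus strand (ENSMUSG00000005220.6), and 147 bases of its exons are shared with Gm20647 on the opposite strand, which was listed at 0 in all 8 libraries.

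Promoter windows from RefSeq on GRCm38.p6, reaching from 250 bases before to 50 bases after a transcript start, were found for 4 of the 9 genes, Sox2, Corin, Prom1 and Tbx18. The windows of Corin, which rose, and of Tbx18, whose daily means ran only from 4.70 to 4.88 TPM, are shown as the contrasting pair. The Corin window is chr5:72504491-72504790 and the Tbx18 window is chr9:87731211-87731510, both on the minus strand and written 5′ to 3′. Capitals mark matches to any of 8 motifs.
Corin: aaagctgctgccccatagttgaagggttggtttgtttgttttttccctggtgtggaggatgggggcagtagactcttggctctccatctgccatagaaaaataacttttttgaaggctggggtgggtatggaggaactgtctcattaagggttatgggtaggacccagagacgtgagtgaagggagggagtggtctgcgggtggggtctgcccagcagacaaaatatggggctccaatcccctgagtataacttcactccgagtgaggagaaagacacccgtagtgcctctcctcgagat
Tbx18: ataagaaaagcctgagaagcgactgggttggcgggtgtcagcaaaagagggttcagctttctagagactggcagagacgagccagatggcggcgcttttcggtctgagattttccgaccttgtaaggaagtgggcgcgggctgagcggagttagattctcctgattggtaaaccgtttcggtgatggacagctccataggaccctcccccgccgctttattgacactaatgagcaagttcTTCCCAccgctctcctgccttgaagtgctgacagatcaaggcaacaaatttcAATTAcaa
The motifs, searched on both strands, were ACAAT for Sox factors, GGTGTGA for T-box factors, TGGGAA for the Notch effector RBPJ, CTTTGA for TCF/LEF, TAATT for homeodomain factors, AGATAA for GATA factors, CACGTG for the E-box and TATAAA for the TATA box. None of the 8 matched in the window of Corin or in that of Sox2. Prom1 had 2 windows, 1 with TGGGAA and TAATT and the other with CTTTGA and TAATT. The Tbx18 window held TGGGAA at bases 241 to 246 and TAATT at bases 293 to 297, counted from its 5′ end and both on the reverse strand. Of 32851 promoter windows, 25.6% held TGGGAA and 27.0% held TAATT, so neither match is rare. ACAAT was in 31.0%, CTTTGA in 16.0%, TATAAA in 13.6%, AGATAA in 11.2%, CACGTG in 7.15% and GGTGTGA in 3.98%. Both windows had 51.7% of G and C bases, beside a median of 52.7% over all windows. The GENCODE vM21 gene model of Corin starts just downstream of the RefSeq window, so the window depends on the annotation.

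Alx4 encodes a homeodomain factor of mesenchyme whose loss in mice affects limbs, skull and hair. It had 0.10 TPM in each library of day 12, 0.70 and 0.12 at day 15, 1.84 and 1.23 at day 21, and 1.53 and 0.95 at day 26. All 4 libraries of days 21 and 26 lay above all 4 of days 12 and 15, while days 21 and 26 overlapped. The log2 change from day 12 to day 26 was 1.01 (SE 0.33, limma adjusted p = 0.0725), and from day 15 to day 21 it was 0.87 (SE 0.33, adjusted p = 0.213). Neither passed, and nor did the F test (adjusted p = 0.0960). Without the mean-variance trend the change from day 12 to day 26 had an adjusted p of 0.0436. The gene model of Alx4 on chromosome 2 (93642384 to 93681339, plus strand, ENSMUSG00000040310.8) overlaps that of Ext2, which is on the opposite strand and had between 97.79 and 152.65 TPM. Their annotated exons share 0 bases, but SMART-seq2 keeps no strand, and whether unspliced reads of Ext2 added to Alx4 was not tested.

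Prom1 encodes the membrane glycoprotein also called CD133, a surface marker used to sort papilla cells. It was listed at 0 in both libraries of day 12, at 1.02 and 0.58 TPM at day 15, 0.24 and 0.51 at day 21, and 0.56 and 1.41 at day 26. Each of the 6 later libraries was above day 12, without a steady order among the later days. The log2 change from day 12 to day 26 was 0.96 (SE 0.34) and did not pass (limma adjusted p = 0.0879). It passed on a scale with 0.1 added (adjusted p = 0.0388), after quantile normalization (0.0411) and without the mean-variance trend (0.0496), and in no fit that left out 1 library and still tested the gene. Prom1 lies on chromosome 5 from 43993620 to 44102032 on the minus strand (ENSMUSG00000029086.11) and shares 424 exon bases with the antisense gene Gm16401, which had at most 0.03 TPM.

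**Figure D2:**
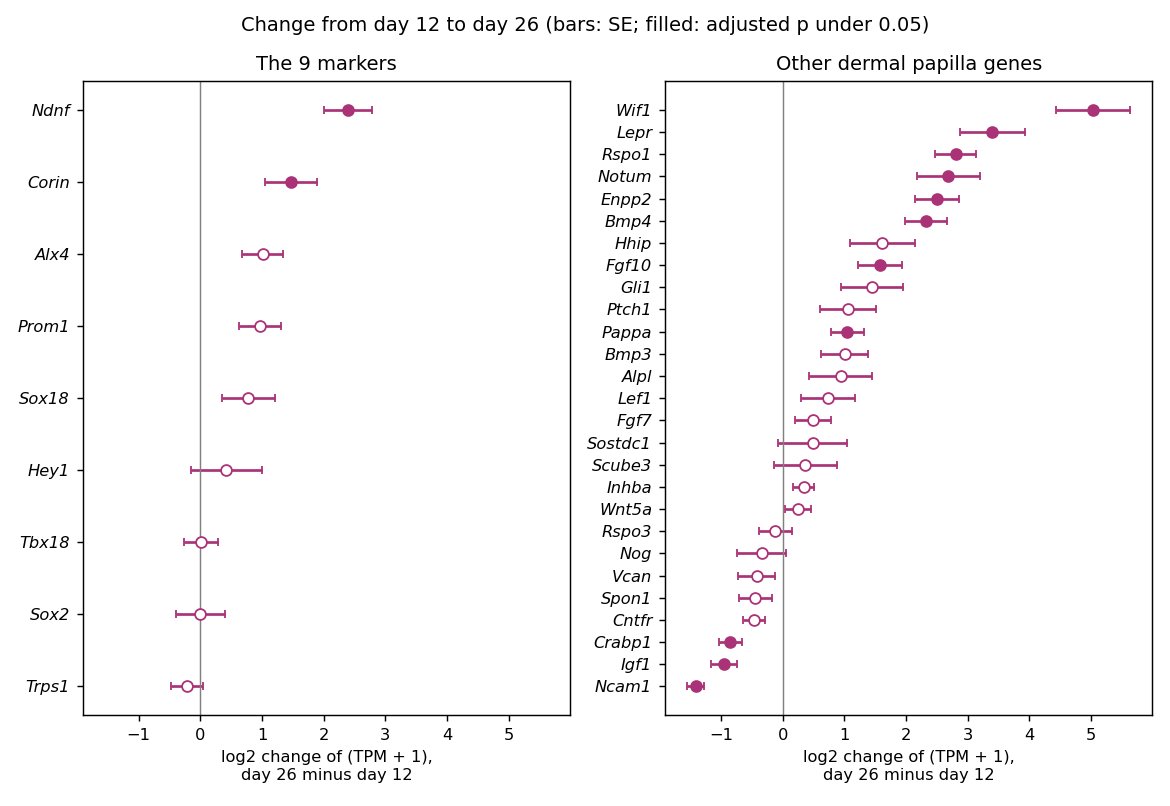
Log2 change of TPM plus 1 from day 12 to day 26 (horizontal axis) for the 9 markers and for 27 other tested genes of the papilla, with SE as bars and filled points where the adjusted p was under 0.05. Ndnf (2.39) and Corin (1.47) are the filled points among the markers, and the other genes run from 5.04 for Wif1 to -1.41 for Ncam1.

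The highest levels of Sox18 fell in the middle of the series. Sox18 encodes a transcription factor of the Sox F group that acts in vessel formation and in the hair follicle, and mice with altered Sox18 have sparse or missing hair types. It had 14.87 and 8.77 TPM at day 12, 39.31 and 13.30 at day 15, 42.12 and 39.78 at day 21, and 18.48 and 22.50 at day 26. Both libraries of day 21 were above the other 6, both of day 12 were below both of day 26, and day 15 spanned most of the range. By mean level the order was day 12 (11.8 ± 4.31 TPM), day 26 (20.5 ± 2.84), day 15 (26.3 ± 18.4) and day 21 (41.0 ± 1.65, SD, n = 2 each), and only the neighbours day 26 and day 15 overlapped. The F test did not pass (limma adjusted p = 0.0977), nor did the step from day 21 to day 26 (log2 change -0.97, SE 0.43, adjusted p = 0.270). Without library 1 of day 15 the F test gave an adjusted p of 0.0151, and without library 2 of day 15 one of 0.0121, so this call turned on either library of that day. Sox18 lies on chromosome 2 from 181669836 to 181671640 on the minus strand (ENSMUSG00000046470.5), with no overlapping gene.

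Levels of Sox18 can be set beside those of endothelial markers, since endothelium is known to use this gene. The 15 endothelial markers, among them Pecam1, Cdh5 and Kdr, were all detected and summed to 290.0 and 241 TPM at day 12, 394 and 246 at day 15, 256 and 248 at day 21, and 223 and 453 at day 26. The sums were highest in library 2 of day 26 and library 1 of day 15, and those of day 21 stood in the middle of the 8 libraries. Much of each sum came from Esam (45.00 to 141.64 TPM) and Eng (67.26 to 94.16 TPM). By mean level 4 of the 15 (Cdh5, Tek, Erg and Ptprb) were highest on day 21, as Sox18 was, 3 on day 15 and 8 on day 26. Of the 15, 1 (Plvap) rose from day 12 to day 26, where 5.26% of all tested genes rose. The other 14 did not pass, and the median log2 change of the 15 was 0.32. Sox17, the relative of Sox18 in endothelium, had between 1.30 and 5.15 TPM. Its values on day 21 were 2.41 and 5.15 TPM, and its mean was 3.78 TPM there and 3.92 TPM on day 15. Sox7 had 1.92 and 1.47 TPM on day 21 and was highest in library 2 of day 26, at 3.83 TPM. The part of endothelial cells in the level of Sox18 was not tested.

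Trps1 encodes a GATA-type repressor of transcription, named for a human syndrome with sparse hair. It had 11.68 and 12.13 TPM at day 12, 19.79 and 11.41 at day 15, 15.60 and 17.54 at day 21, and 10.65 and 9.55 at day 26. Both libraries of day 21 lay above those of days 12 and 26, and those of day 26 were below all the others. From day 21 to day 26 the log2 change was -0.66 (SE 0.26, unadjusted p = 0.0298, limma adjusted p = 0.213) and it did not pass. From day 12 to day 26 it was -0.22 (SE 0.26, adjusted p = 0.595), and 0.01 after quantile normalization. Trps1 lies on chromosome 15 from 50654752 to 50890463 on the minus strand (ENSMUSG00000038679.12).

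Tbx18 encodes a T-box factor known from mural cells of vessels and from early papilla mesenchyme. It had 5.01 and 4.38 TPM at day 12, 5.96 and 3.59 at day 15, 5.32 and 4.43 at day 21, and 4.80 and 4.62 at day 26. All neighbouring days overlapped, and the means of the days ran only from 4.70 to 4.88 TPM. The log2 change from day 12 to day 26 was 0.01 with an SE of 0.27 (limma adjusted p = 0.993), and its sign turned when single libraries were left out (-0.07 to 0.09). The related gene Tbx15 stood higher, between 36.47 and 57.34 TPM. Tbx18 lies on chromosome 9 from 87702800 to 87731260 on the minus strand (ENSMUSG00000032419.8), and 970 bases of its exons are shared with D030062O11Rik on the other strand, which had 0.29 to 1.04 TPM.

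Hey1 encodes a repressor of transcription that is switched on by Notch. It had 1.24 and 2.43 TPM at day 12, 5.88 and 1.05 at day 15, 4.15 and 1.34 at day 21, and 2.40 and 3.07 at day 26. On days 15 and 21 the spread within a day was wider than any difference between the means of days, and all neighbouring days overlapped. The log2 change from day 12 to day 26 was 0.42 (SE 0.58, limma adjusted p = 0.657). Hey1 lies on chromosome 3 from 8663359 to 8667256 on the minus strand (ENSMUSG00000040289.4). The related genes Hey2 and Heyl, named here after their values were seen, were likewise highest in library 1 of day 15, at 9.07 and 62.33 TPM, and had 3.19 and 28.73 TPM in library 2.

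Sox2 encodes a transcription factor of stem cells that marks the papillae of some hair types. It had 0.57 and 0.58 TPM at day 12, 1.61 and 0.62 at day 15, 0.61 and 0.57 at day 21, and 0.12 and 1.23 at day 26. Only library 1 of day 15 and library 2 of day 26 exceeded 1 TPM, and all neighbouring days overlapped. The mean was 0.575 ± 0.00707 TPM on day 12 and 0.675 ± 0.785 on day 26 (SD, n = 2), a log2 change of 0.00 with an SE of 0.40 (limma adjusted p = 0.997). With 0.1 added before the logarithm the change was -0.32, so no direction can be given. Without either of the 2 libraries above 1 TPM, Sox2 fell under the minimum for testing. Sox2 lies on chromosome 3 from 34650405 to 34652461 on the plus strand (ENSMUSG00000074637.6), within Sox2ot, with which it shares 0 exon bases.

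Schwann cells were the other source of Sox2 for which markers were looked up, together with Merkel cells. The 13 Schwann cell and melanocyte markers were all detected and summed to 161 and 323 TPM at day 12, 838 and 314 at day 15, 407 and 283 at day 21, and 173 and 450 at day 26. Sox10, a factor of the neural crest, had its highest level in library 1 of day 15 (80.73 TPM), its next in library 2 of day 26 (46.53 TPM) and its lowest in library 1 of day 26 (10.05 TPM). Sox2 had its highest, next and lowest values in the same libraries. Of the 8 Merkel cell markers, Atoh1 was listed at 0 in all 8 libraries, Krt18 reached 0.22 TPM at most, and the list summed to between 13.0 and 21.4 TPM, of which Piezo2 gave 5.25 to 14.91 TPM. The part of either cell type in the level of Sox2 was not tested.

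**Figure D3:**
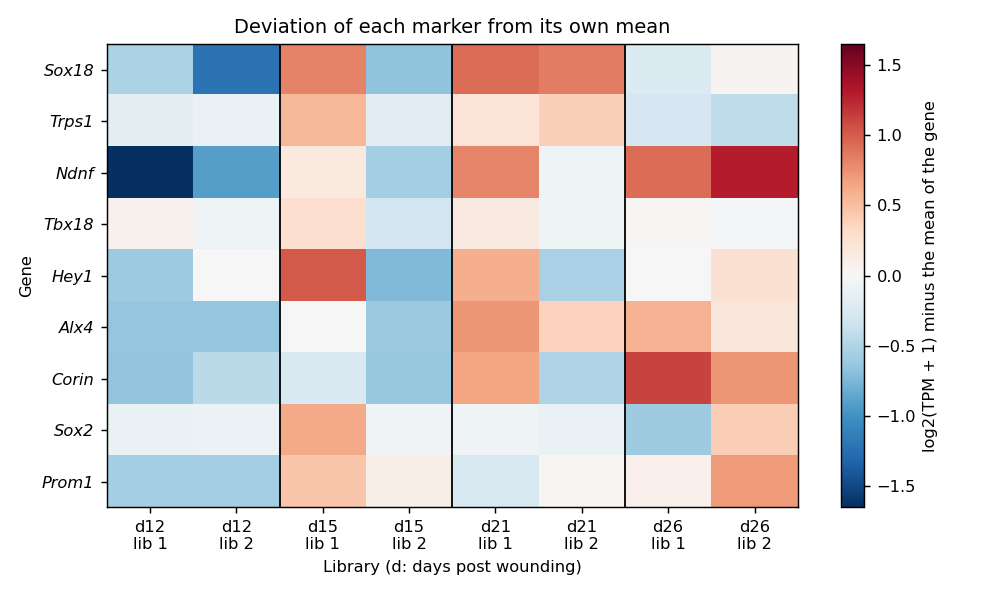
Log2(TPM + 1) of each marker (rows, from the highest to the lowest mean level) minus its own mean, in the 8 libraries (columns); red is above the mean of the gene and blue below. Library 1 of day 15 is redder than library 2 in all 9 rows, and Ndnf and Corin run from blue on day 12 to red on day 26.

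Libraries of the same day differed in all markers together on day 15. Library 1 of day 15 was above library 2 in 9 of 9 markers, where 71.8% of all tested genes were higher in that library. The median log2 difference was 0.69 for the markers and 0.20 for all tested genes. On day 21, 7 of 9 markers were higher in library 1, beside 61.6% of tested genes. On day 12, 2 of 9 were, beside 54.4%, and on day 26 it was 4 of 9, beside 40.7%. Sox2 and Prom1 reached 1 TPM in only 2 libraries each, library 1 of day 15 and library 2 of day 26. They were tested through these libraries. The count and median of day 15 therefore lean towards library 1, and the count of day 26 towards library 2. Library 1 of day 15 held the highest level of Trps1, Tbx18, Hey1 and Sox2 among the 8 libraries, and no marker was highest on day 12. Summed over the 9 genes, TPM were 34.9 and 31.5 at day 12, 82.0 and 34.8 at day 15, 83.5 and 71.7 at day 21, and 54.2 and 62.3 at day 26, most of it Sox18 and Trps1.

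Library 1 of day 15 also stood apart in genes of other cells. The 12 pericyte and smooth muscle markers, all higher there than in library 2, summed to 2927 and 1167 TPM in libraries 1 and 2 of day 15, to 1742 and 1381 at day 12, 1268 and 741 at day 21, and 1128 and 2339 at day 26. None of the 12 passed from day 12 to day 26. Tbx18, known from pericytes, had 5.96 TPM where that sum was highest and 4.62 TPM where it was second highest, and Hey1 had 5.88 and 3.07 TPM there. Xist, a noncoding RNA made by the silenced X of female cells, stood at 30.71 and 5.54 TPM on day 15 and at 4.78 and 27.53 TPM on day 21, against at most 0.01 TPM on days 12 and 26. The part of these differences in the levels of the markers was not tested.

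**Figure D4:**
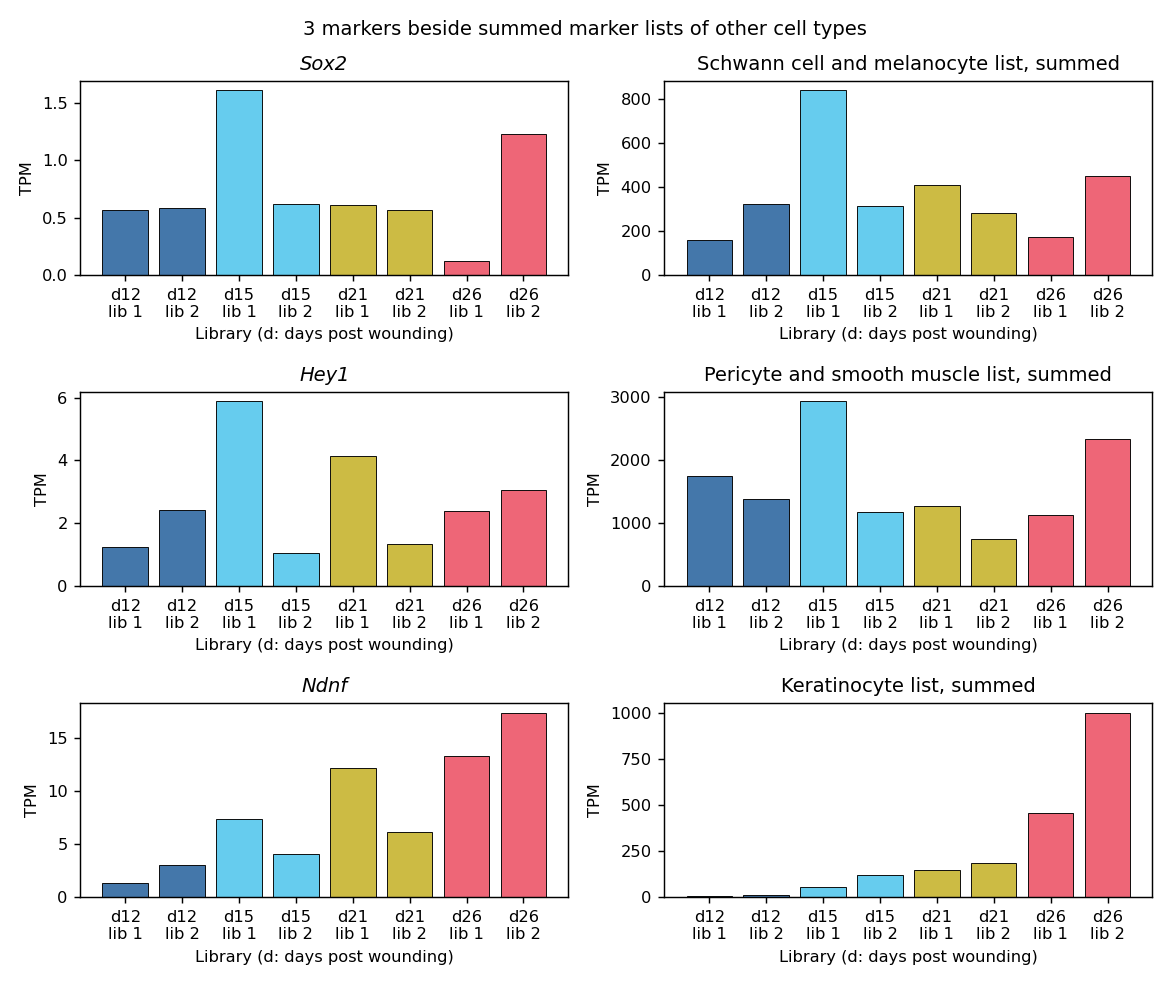
TPM (vertical axes from 0) of Sox2, Hey1 and Ndnf on the left and summed TPM of 3 marker lists on the right, as bars for the 8 libraries coloured by day. Sox2 and the Schwann cell and melanocyte list are both highest in library 1 of day 15 (1.61 and 838 TPM), and Ndnf and the keratinocyte list are both highest in library 2 of day 26 (17.37 and 1001 TPM).

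The sorted cells bore the marks of fibroblasts, and other cell types changed across the days. Of 10 fibroblast markers, 7 rose from day 12 to day 26, 0 fell and 3 did not pass (median log2 change 0.77), and their sum was between 39244 and 108156 TPM. The counts here stand beside 5.26% of all tested genes that rose and 11.8% that fell. Keratinocyte markers summed to 8.83 and 10.6 TPM on day 12 and to 455 and 1001 TPM on day 26, and 15 of 15 tested rose. Macrophage and leukocyte markers went the other way, from 6607 and 4489 TPM to 1442 and 2283 TPM, with 13 of 16 lower and 3 not passed. Of the Schwann cell and melanocyte markers 1 of 12 tested rose, Mlana, and of the Merkel cell markers 2 of 4 tested rose, Krt8 and Krt20, and 1 fell, Piezo2. Krt8, Krt20, Mlana and most of the keratinocyte markers were under 1 TPM in both libraries of day 12. They were tested through later libraries, so the counts of rises for these 3 lists lean towards late rises. Ndnf and Corin thus rose over the same days as fibroblast and keratinocyte markers, and the part of either in their rise was not tested. Between 13135 and 14147 genes reached 1 TPM in a library.

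From one day to the next, no marker passed. In the step from day 12 to day 15, 0 of 9 passed in limma and 2 (Prom1 and Ndnf) had an unadjusted p under 0.05, where 0.159% of tested genes passed and 8.74% had such a p. From day 15 to day 21, 0 of 9 passed and 1 (Alx4) had an unadjusted p under 0.05, where 1.4% of tested genes passed and 18.6% had such a p. From day 21 to day 26, 0 of 9 passed and 1 (Trps1) had an unadjusted p under 0.05, where 0.319% passed and 18.7% had such a p. Over the whole span from day 12 to day 26, 4 of 9 (Corin, Alx4, Prom1 and Ndnf) had an unadjusted p under 0.05, beside 31.9% of tested genes. Corin, Alx4 and Prom1 were tested only through libraries of day 15 or later, so this count leans towards rises. The same holds for Prom1 in the step from day 12 to day 15 and for Alx4 in that from day 15 to day 21. Each of these steps uses libraries that a neighbouring step also uses.

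The authors' deposited table of gene clusters lists 3 of the 9 markers among 4120 genes. Alx4 and Ndnf are in its cluster C4, with p-values of 0.0241 and 0.0110, and Corin is in cluster C5, with a p-value of 0.0225. The test behind these p-values is not stated. Among all 43346 genes 9.50% are in a cluster, and among the tested genes 23.7%. The same table lists 14 of the 30 other papilla genes, 7 of them in C4 and 3 in C5.

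Other genes of the papilla changed in both directions. Of 30 further papilla genes, 27 were tested and 8 rose from day 12 to day 26, 3 fell and 16 did not pass, with a median log2 change of 0.74 (0.96 after quantile normalization). Over all tested genes 5.26% rose and 11.8% fell, so the number of papilla genes that fell is near the general share. Among those that rose, Wif1 and Notum were under 1 TPM in both libraries of day 12 and were tested through later ones. Over the 4 days 14 of 27 passed the F test, beside 12.4% of all tested genes. Wif1, a secreted inhibitor of Wnt, had 0.25 and 0.68 TPM at day 12, 6.46 and 0.48 at day 15, 26.49 and 22.26 at day 21, and 44.54 and 48.69 at day 26 (log2 change 5.04, SE 0.60, limma adjusted p = 0.00126). Rspo1, a secreted agonist of Wnt, had 1.77 and 2.09 TPM on day 12 and 15.32 and 24.78 TPM on day 26 (log2 change 2.81, SE 0.33, adjusted p = 0.00118). Bmp4, a growth factor of papilla cells, had 4.77 and 8.07 TPM on day 12 and 27.31 and 45.51 TPM on day 26 (log2 change 2.33, SE 0.34, adjusted p = 0.00294). For these 3 genes days 12 and 26 were well separated, and the libraries of day 21 lay above those of day 12.

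The genes that fell were Ncam1, Crabp1 and Igf1, the latter 2 named after their values were seen. Ncam1, a cell adhesion molecule of papilla and nerve, had 74.79 and 80.88 TPM on day 12 and 29.48 and 27.72 TPM on day 26 (log2 change -1.41, SE 0.14, limma adjusted p = 0.000518). Crabp1, which binds retinoic acid in the cell, went from 2106.18 and 2694.01 TPM to 1307.41 and 1342.78 TPM and was by far the most abundant gene of the list. Alpl, the alkaline phosphatase by which papillae are often stained, had 2.59 and 1.95 TPM on day 12 and 5.79 and 4.73 TPM on day 26, a difference that missed the threshold (limma adjusted p = 0.247). Foxd1 and Rspo2 were too low to test, at 0.83 TPM or less in every library.

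Genes of neighbouring compartments and relatives of the markers are read against the 5.26% of tested genes that rose and the 11.8% that fell. Of 10 dermal sheath and arrector pili genes, 2 fell from day 12 to day 26 and 8 did not pass (median log2 change -0.41). They were the contractile genes Cnn1 (12.4 ± 2.24 to 0.635 ± 0.318 TPM) and Acta2 (1481 ± 181 to 513 ± 186 TPM). Of 13 further Sox genes, 11 were tested and 3 fell, Sox4 (30.6 ± 3.83 to 13.5 ± 3.08 TPM), Sox9 (10.9 ± 1.37 to 3.45 ± 0.0849 TPM) and Sox11 (1.75 ± 0.778 to 0.150 ± 0.0283 TPM). Sox11 reached 1 TPM only on day 12 and was tested through those libraries. The other 8 did not pass. Sox4 and Sox11 belong to the Sox C group, and Sox9 is a factor of the follicle epithelium and of cartilage.

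Of 19 Notch pathway genes, 17 were tested and 1 rose, the effector gene Hes1, with 44.10 and 43.53 TPM on day 12 and 139.49 and 71.78 TPM on day 26 (log2 change 1.17, SE 0.29, limma adjusted p = 0.0268). This is close to the share of all tested genes that rose. The other 16 did not pass, and nor did Hey1. Of 9 further genes of the Alx and T-box families, 3 were tested and 1 fell, Tbx3, from 20.1 ± 3.56 to 10.4 ± 0.877 TPM (log2 change -0.88, adjusted p = 0.0263). In the natriuretic peptide system, on which Corin acts, 1 of 5 tested genes rose, the receptor gene Npr2, with 6.25 and 7.48 TPM at day 12, 21.93 and 22.39 at day 21 and 12.63 and 17.34 at day 26 (log2 change 1.01, SE 0.24, adjusted p = 0.0224). The other 4 did not pass, among them the receptor genes Npr1 (log2 change -0.20, limma adjusted p = 0.658) and Npr3 (-0.19, 0.691). Nppa, which encodes the substrate of Corin, was listed at 0 in all 8 libraries.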

How the data were processed

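Per the file headers the deposited table holds 1 signal per gene and library. No value was under 1 and each column summed to 1000000 after subtracting 1 from each of 43346 genes, within 1, which identifies the deposited signal as TPM with 1 added. RSEM 1.12.2 and mm10 are named in the submitters' processing notes; aligner and annotation are not stated there. The authors' cluster tables give a p-value per gene, and their 40 value columns, over 5 tables of 8 libraries, were not used. Columns carry the day and a number other than the replicate number of the labels, so they were assigned to days.

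A gene needed 1 TPM or more in 2 libraries to be tested, on log2(TPM + 1), with limma 3.58.1 in R 4.3.3 (trend method, day as a factor, 4 residual and 4.76 prior degrees of freedom). The F test and 4 contrasts were 2-sided and adjusted by the Benjamini-Hochberg method over all 15062 genes. The scripts were tested on simulated data. Adding 1 shrinks the log2 changes of low genes. Strand is not kept by SMART-seq2.

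All 9 markers are named, with up to 4 members of each further list by adjusted p of the F test, among those that passed it or the contrast of day 26 with day 12. The 3 genes most like a marker were sought for markers that passed the F test. Further genes of the lists, such as Sox10, Sox17, Tbx15 and Alpl, were named after their values were seen. The markers and all gene lists were chosen with earlier results of these data known. Alternatives were another pseudocount, other filters, quantile normalization, no trend, fewer days, fewer libraries, and a block on the column number, which was added after seeing the data.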

Additional observations from a re-analysis of the deposited data

How the results depend on the processing

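The rise of Ndnf from day 12 to day 26 passed under all alternatives. From day 12 to day 26, 2 markers rose; the count was 1 with a minimum of 5 TPM (4 markers tested) and 1 without a filter, 4 without the mean-variance trend (Ndnf, Corin, Alx4 and Prom1), 3 after quantile normalization, and 1 to 2 with 1 library left out. The F test passed 1 marker, 0 without a filter or without the 2 libraries richest in Xist (called the Xist pair), and 0 to 2 with 1 library left out. Of the other papilla genes, 11 passed from day 12 to day 26, 7 without a filter and 8 to 13 with 1 library left out. For these genes 14 passed the F test, 5 without a filter, 8 without the trend, 5 without the Xist pair and 6 to 13 with 1 library left out. Over all genes the F test passed 1866, 781 without a filter, 462 without the Xist pair and 656 to 1849 with 1 library left out, the fewest without library 1 of day 12. From day 12 to day 26 the count was 2562, 1667 without a filter and 773 to 2551 with 1 library left out; the split of 792 higher and 1770 lower became 1162 and 1215 after quantile normalization. From day 12 to day 15 it was 24, then 3 without a filter, 1 without the trend, 4 after quantile normalization, 0 without the Xist pair and 0 to 53 with 1 library left out. From day 15 to day 21 it was 211, then 134 with 0.1 added, 44 without a filter, 51 without the trend, 0 without the Xist pair and 2 to 324 with 1 library left out. From day 21 to day 26 it was 48, then 28 with the minimum of 5 TPM, 15 with 0.1 added, 10 without a filter, 12 without the trend, 0 without the Xist pair and 0 to 77 with 1 library left out. Of log2 changes that did not pass, that of Trps1 was 0.01 after quantile normalization, that of Sox2 -0.32 with 0.1 added, and that of Tbx18 -0.07 to 0.09 with 1 library left out. The cause of these differences was not tested. Where 1 library was left on a day, it was assumed to vary like the others. Pairing by the replicate numbers of the labels could not be tried, since the columns carry other numbers. The columns' own numbers recur across days, and what they mean is not stated. Over 7 pairs of libraries with the same number, deviations from the means of the days correlated at -0.23 to 0.14. With 2 libraries a day, such correlations cannot decide whether libraries of the same number share a source. A replicate block on these numbers, chosen after seeing the data, left 2 residual degrees of freedom. With this block 1 marker passed from day 12 to day 26 (Ndnf, log2 change 2.24, limma adjusted p = 0.0299; Corin 0.171). In the F test with the block 1 marker passed (Sox18, 0.0497; Ndnf 0.0715), and no step between neighbouring days passed a marker. Of the other papilla genes 7 passed with the block from day 12 to day 26 and 9 the F test. Over all genes the limma fit with the block passed 1087 in the F test and 1474 between days 12 and 26, with 1, 83 and 0 in the steps to days 15, 21 and 26. Log2 changes with the block were -0.10 for Hey1, -0.01 for Sox2 and -0.22 for Tbx18, none of which passed. Depth is unknown, which limits what can be said of genes near 0 TPM.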
